A study of Arabidopsis thaliana with 8 samples.

Results

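Iron uptake and storage in sulfate-starved Arabidopsis seedlings were followed through 5 genes: *IMA1* (AT1G47400), *IRT1* (AT4G19690), *FRO2* (AT1G01580), *FER1* (AT5G01600) and *BHLH101* (AT5G04150). They were fixed by gene identifier, with earlier results of these data known, and 3 of the 5 could be tied to a probe set of the ATH1 array: *IMA1* and *BHLH101* through the platform annotation and *FER1* through a gene identifier in the study's tables. These are 3 of 22746 probe sets. No probe set could be named for *IRT1* or *FRO2*, so neither has a value here; 7924 probe sets stayed unnamed and 503 carried several genes. *FER1* is listed in the study's tables among lines with a -S over FN ratio of 2.67 or more in experiment 1 (1996 of the 2005 probe sets at or above that ratio), so its name is known here only because it was high in -S in that experiment.

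The series holds 8 arrays, 2 for each of 4 conditions, 1 from each of 2 experiments that the study treats as biological replicates (n = 2 per condition throughout). All are wild-type Col-0 whole seedlings, pooled per flask of liquid culture and 9 days old by the labels. In -S, seedlings pre-grown for 7 days with 150 µM sulfate had 48 h in medium without added sulfate; 30' S and 3 h S are such starved cultures 30 min and 3 h after 500 µM sulfate was returned; FN seedlings stayed in full nutrient medium with 3 mM sulfate. By the study's medium recipe all media carried the same iron chelate and trace elements, some of the latter as sulfate salts. The -S medium held less nitrate and ammonium salt than FN medium, so that values over FN cannot be told apart from that difference. By contrast, the starved and resupplied cultures share 1 medium. No array of starved cultures given potassium chloride in place of sulfate was analysed here, so time after opening the flask and sulfate cannot be told apart either.

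Iron is scarce in a soluble form, and Arabidopsis takes it up by reduction at the root surface: a ferric chelate reductase (*FRO2*) makes ferrous iron, which the transporter *IRT1* carries into the epidermis. Low iron raises a cascade of basic helix-loop-helix (bHLH) factors, among them *BHLH101* and its relatives *BHLH38*, *BHLH39* and *BHLH100*, and raises small IRONMAN peptides such as *IMA1*, which shield the factors upstream of these, such as *ILR3* and *BHLH115*, from degradation. Ample iron has the opposite effect and raises ferritins such as *FER1*, plastid shells that store iron and keep it from generating reactive oxygen. Iron and sulfur meet in iron-sulfur clusters, whose sulfur comes from cysteine.

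Values are MAS version 5.0 signals, linear intensities scaled per array by the authors' software. Their 2% trimmed mean, computed here, was 99.4 on each array, and array medians lay between 41.9 and 47.6. A floor was set for each array at the signal below which its share of absent detection calls falls, between 10.9 and 20.3, and lower signals give no usable order. Fold changes came from 1 limma fit on log2(signal + 16), over all 8 arrays and blocked by experiment, for the 17138 probe sets whose signal reached the floor on 2 or more arrays. A gene is called, and said to rise or fall, when its p adjusted over all of these by the Benjamini-Hochberg method is under 0.05. As a check of the labels, *BGLU28*, a beta-glucosidase of sulfur-starved plants named through the annotation, had signals of 3271.6 and 2593.9 in -S against 9.0 and 4.7 in FN, both FN signals below the floor, in experiments 1 and 2. Of 10 root marker genes 3 could be named and were at or above the floor on every array, and so was the 1 shoot marker named of 6, so both organs were represented.

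The peptide gene *IMA1* was low in starved seedlings. Its signals were 24.7 and 14.9 in -S, 18.6 and 9.6 in 30' S and 18.9 and 10.9 in 3 h S, against 168.1 and 143.4 in FN, each pair in experiments 1 and 2. Both FN signals were higher than all 6 others, and how many of all probe sets separate in this way was not counted. The raw ratio of -S over FN was 0.147 in experiment 1 and 0.104 in experiment 2, a fall of 6.81-fold and 9.62-fold. In the fit *IMA1* fell by 2.27 ± 0.14 log2 units (SE; limma, adjusted p = 0.00065; 95% interval -2.59 to -1.95), a smaller change than the raw ratios because of the added 16. This was the 15th lowest log2 fold change of the 17138, whose median was 0.05. The call held whichever single array was left out. *IMA2* (AT1G47395), which encodes a related peptide and is the next gene along the chromosome, has no named probe set, and whether the *IMA1* probe set also reads its transcript was not tested.

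*IMA1* stayed low over the 3 h after sulfate was returned. In 3 h S it was still lower than in FN by a log2 value of -2.48 ± 0.14 (limma, adjusted p = 0.0032). The raw ratio was 0.112 in experiment 1, and in experiment 2 the 3 h S signal was below its floor; with that signal set to the floor, the geometric means gave at least 9.9-fold lower in 3 h S. This call was lost without the 3 h S array of experiment 1 (-2.50, adjusted p = 0.13) or experiment 2 (-2.47, adjusted p = 0.14) and the log2 value was the 6th lowest of all probe sets tested. Within the -S medium the differences were small. The log2 fold change was -0.25 ± 0.14 in 30' S over -S (adjusted p = 1.0; 95% interval -0.57 to 0.07) and -0.21 ± 0.14 in 3 h S over -S (adjusted p = 0.57; 95% interval -0.53 to 0.11), and the raw signal was lower than in -S in both experiments at each time. Between 3 h S and 30' S the log2 difference was 0.04 ± 0.14 (adjusted p = 0.92). Both -S signals were just above their floors (18.8 and 13.5), both 30' S signals just below theirs (19.0 and 10.9) and 1 of the 2 3 h S signals below its floor (13.1). In 30' S *IMA1* was therefore at least 10.8-fold lower than in FN, with the geometric mean of both experiments set against that of the floors, and a further fall from the -S level could hardly have been measured.

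**Figure D1:**
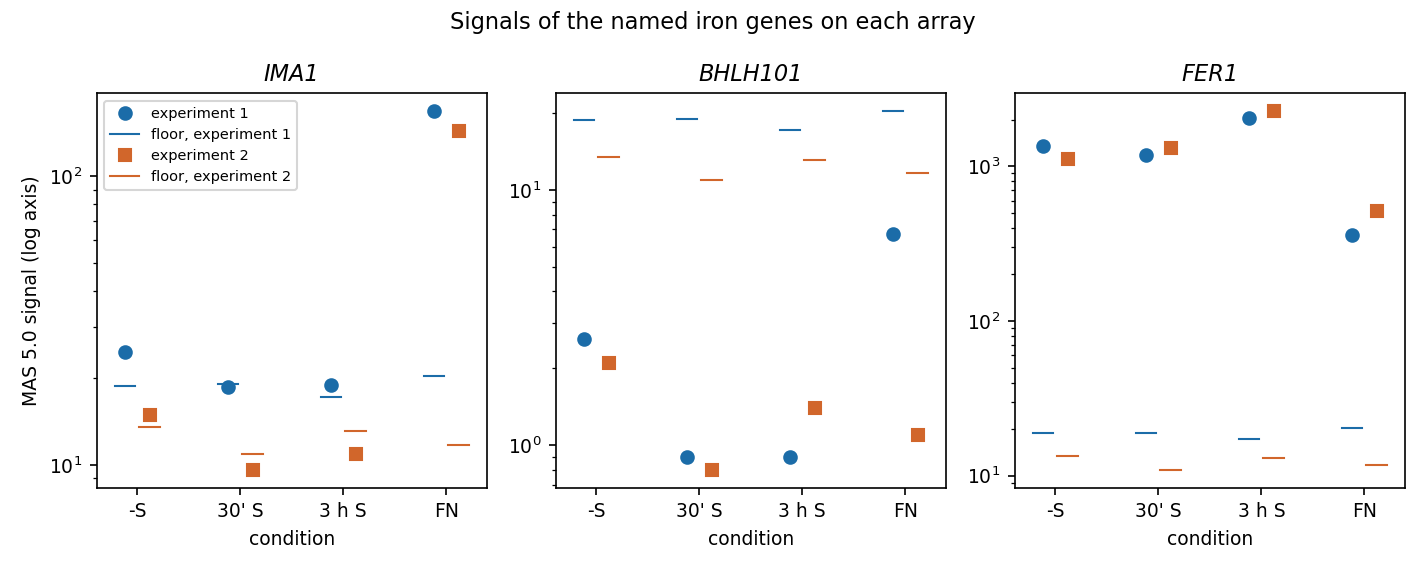
MAS 5.0 signals (log axis) of *IMA1*, *BHLH101* and *FER1* by condition, with 1 point per array (circles, experiment 1; squares, experiment 2) and short lines at each array's floor. *IMA1* is high in FN and near the floor elsewhere, all 8 *BHLH101* signals lie below the floor, and *FER1* is lowest in FN and highest in 3 h S.

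*BHLH101*, a bHLH factor of the low-iron cascade, was not measurable. Its signals were 2.6 and 2.1 in -S, 0.9 and 0.8 in 30' S, 0.9 and 1.4 in 3 h S and 6.7 and 1.1 in FN in experiments 1 and 2. Of the 8 arrays 0 reached the floor, so the probe set did not enter the fit, no fold is given, and the signals do not show that the gene was silent. Its relative *BHLH39*, which also pairs with the factor *FIT*, was at 6.3 and 6.5 in -S, 1.8 and 5.7 in 30' S and 30.0 and 8.3 in 3 h S, against 23.8 and 12.1 in FN. Only both FN signals and the 3 h S signal of experiment 1 reached the floor. *BHLH39* entered the fit through those arrays alone, and both of its -S signals lay below the floor. Its fitted log2 values, -0.58 ± 0.28 in -S over FN and 0.58 ± 0.28 in 3 h S over -S, are therefore a description and not a measured fold. Neither was called (limma, adjusted p = 0.28 and 0.43). The name of *BHLH39* comes from a study table of genes that responded in experiment 1.

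*FER1*, a ferritin of leaves, was higher in starved seedlings than in FN and had its highest signals 3 h after sulfate was returned. Its signals were 1352.5 and 1121.6 in -S, 1176.8 and 1304.1 in 30' S and 2042.9 and 2261.9 in 3 h S, against 360.4 and 513.4 in FN, in experiments 1 and 2. All were far above the floor. The 2 FN arrays were the lowest of the 8 and the 2 3 h S arrays the highest, while the -S and 30' S arrays overlapped. How many of all probe sets share this order was not counted, and the naming used the -S and FN arrays of experiment 1. The raw ratio of -S over FN was 3.75 in experiment 1, the value through which the gene came to be named, and 2.19 in experiment 2, a single pair of arrays that the naming did not use and that allows no test. The fit gave 1.48 ± 0.19 log2 units in -S over FN (limma, adjusted p = 0.015; 95% interval 1.03 to 1.94). It holds the arrays of experiment 1, so this p is no independent support for a difference and is given as a description. The call was lost without the -S array of experiment 1 (1.22, adjusted p = 0.20), without any one 30' S or 3 h S array (adjusted p 0.061 to 0.067), without the offset (1.52, adjusted p = 0.065), with no filter on low signals (adjusted p = 0.073) and in a fit on -S and FN alone (adjusted p = 0.21).

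After resupply *FER1* signals were above those of FN in both experiments. Between 3 h S and FN the log2 fold change was 2.28 ± 0.19 (limma, adjusted p = 0.013; 95% interval 1.82 to 2.73), with raw ratios of 5.67 and 4.41, the 28th highest of all probe sets tested; this comparison shares the FN array of experiment 1 with the naming, and its p is likewise a description. That call was lost without the 3 h S array of experiment 1 (2.29, adjusted p = 0.36) or experiment 2 (2.27, adjusted p = 0.18), without either 30' S array (adjusted p = 0.071), without the offset (2.32, adjusted p = 0.065) and with no filter (adjusted p = 0.097). After 30 min no difference was detected: the log2 value in 30' S over -S was 0.01 ± 0.19 (adjusted p = 1.0; 95% interval -0.45 to 0.46), and the raw ratios of 0.87 and 1.16 ran in opposite directions in experiments 1 and 2. Over the later step, 3 h S over 30' S, both raw ratios were close to each other at 1.74 and 1.73, for a log2 value of 0.79 ± 0.19 (adjusted p = 0.14; 95% interval 0.33 to 1.24). The whole resupply, 3 h S over -S, gave 0.80 ± 0.19 (adjusted p = 0.13; 95% interval 0.34 to 1.25) with raw ratios of 1.51 and 2.02. Neither of these passed the test over all probe sets. In limma fits on the compared conditions alone both were called (adjusted p = 0.029 for 3 h S over -S and 0.012 for 3 h S over 30' S). Those fits called 1067 and 1234 of all probe sets tested, against 182 and 94 in the main fit, so these calls do not set *FER1* apart. Both were also called without either FN array. Such settings change the estimated spread and not the signals compared. The intervals are not adjusted for the number of probe sets.

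**Figure D2:**
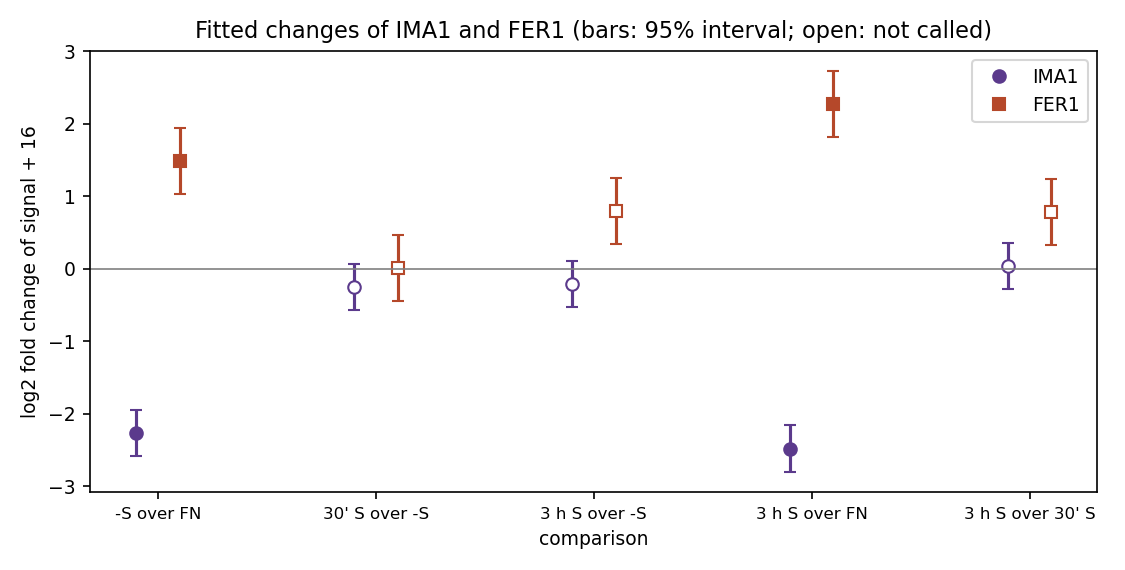
Fitted log2 fold changes of *IMA1* (circles) and *FER1* (squares) in the 5 comparisons, with 95% intervals from limma; filled symbols were called. *IMA1* is below 0 and *FER1* above 0 in both comparisons with FN, and within the -S medium no comparison was called for either gene.

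The 2 measurable genes thus lay on opposite sides of FN. *IMA1* was called in -S over FN (background 1.42% of all probe sets tested) and in 3 h S over FN (0.56%). *FER1* passed the same limit in both, but was named through its high -S over FN ratio in experiment 1, so its calls are not read against these shares. Neither was called in 30' S over -S (background 0.00583%), 3 h S over -S (1.06%) or 3 h S over 30' S (0.548%). These shares describe the genes and support nothing further. The comparisons share arrays (-S over FN and 3 h S over FN the FN arrays, for example), so they do not count as separate evidence. On the mean of both arrays *IMA1* ran FN, then -S, with 30' S and 3 h S at or near the floor and without a usable order, and *FER1* ran 3 h S, 30' S, -S, FN. For *IMA1* only the step between FN and the other conditions exceeded the spread between arrays. Means for *FER1* were 1237.0 ± 163.3 in -S, 1240.4 ± 90.0 in 30' S and 2152.4 ± 154.9 in 3 h S, against 436.9 ± 108.2 in FN (SD, n = 2 each), so that -S and 30' S were not separable. Across the 8 arrays the log2(signal + 16) values of *IMA1* and *FER1* had Pearson r = -0.91, a description of arrays that share conditions and experiments. Outside FN *IMA1* lay near its floor, so this r rests largely on the FN arrays against the others and shows no graded relation. The naming of *FER1* also used the -S and FN arrays of experiment 1.

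**Figure D3:**
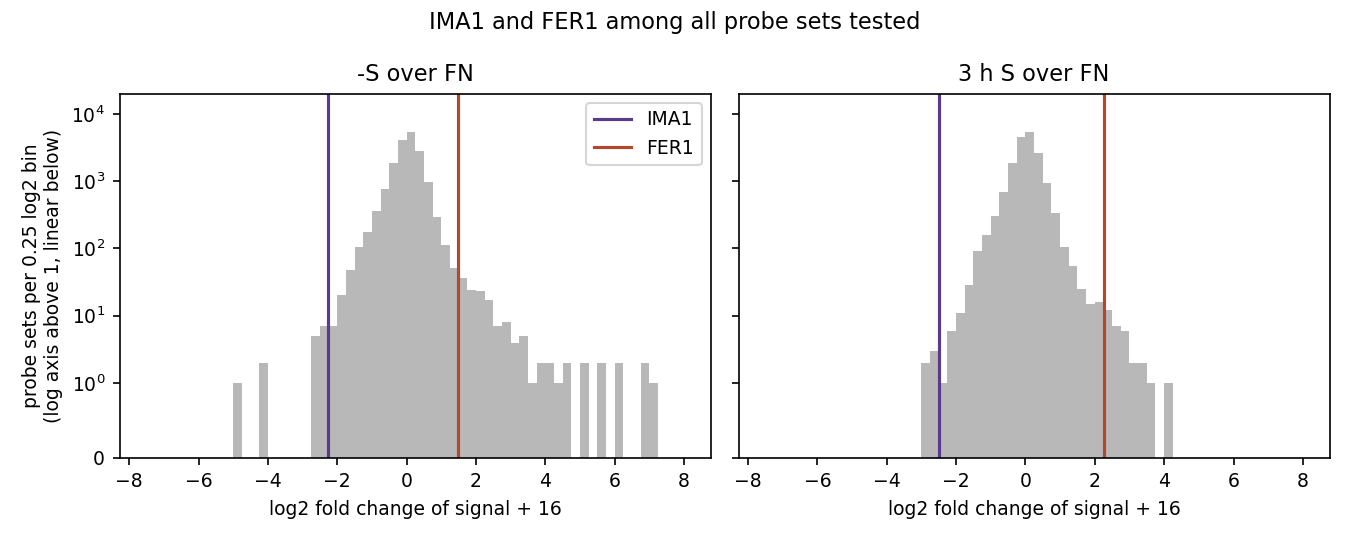
Number of probe sets per bin of fitted log2 fold change, for -S over FN and 3 h S over FN (17138 probe sets each, count axis logarithmic above 1). Vertical lines mark *IMA1*, at -2.27 and -2.48, in the sparse lower tail, and *FER1*, at 1.48 and 2.28, in the upper tail.

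Whole seedlings hold many cell types, and fewer cells of a type cannot be told apart from less RNA per cell. The root markers were *EXPA7* and *EXPA18*, expansins of root hairs, and *PYK10*, a root beta-glucosidase. Of these, 0 of 3 were called in -S over FN, with log2 fold changes of -0.11, -0.26 and -0.07. With 1.42% of all probe sets tested called, a count of 0 does not set these markers apart. Their summed signal, nearly all of it from *PYK10*, was 3152.1 to 3259.8 in -S, 2834.6 to 2986.1 in 30' S and 3232.6 to 3236.1 in 3 h S, against 3015.3 to 3835.5 in FN. The shoot marker *SBPASE*, an enzyme of the Calvin cycle, had signals of 219.3 and 455.8 in -S, 204.4 and 374.8 in 30' S and 205.0 and 443.9 in 3 h S, against 777.7 and 550.4 in FN (log2 -S over FN -1.01 ± 0.36; limma, adjusted p = 0.19). Its part in the *IMA1* and *FER1* values was not tested.

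Around the 5 genes, 78 others that move, sense or use iron or a related metal were listed, with earlier results of these data known, and 18 of them had a named probe set and entered the fit. Of these, 0 were called by limma in any of the 5 comparisons, beside background shares of at most 1.42%, so that a count of 0 does not set them apart. At an unadjusted p under 0.05 limma had 4 of 18 in -S over FN (21.1% of all probe sets tested), 0 in 30' S over -S (2.97%), 1 in 3 h S over -S (13.8%), 2 in 3 h S over FN (18.6%) and 2 in 3 h S over 30' S (14.3%). Their log2 fold changes in -S over FN ran from -0.68 to 0.80 with a median of 0.18, against 0.05 over all probe sets tested. All 18 lay between *IMA1* and *FER1* in that comparison. Among the 18, *NRAMP3* and *BHLH39* were named through study tables of genes that responded in experiment 1. *NRAMP3* is in the unadjusted counts of -S over FN and 3 h S over FN and holds the highest log2 value, 0.80. *BHLH39* is in the count of 3 h S over 30' S. The counts, range and median are therefore a description.

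Among the regulators, 9 of 20 entered the fit and 0 were called, beside 1.42% of all probe sets in -S over FN. *BHLH115*, one of the bHLH factors that act upstream in the low-iron cascade, had signals of 521.5 and 327.8 in -S against 290.6 and 259.8 in FN in experiments 1 and 2. It was higher in -S in both, with a log2 value of 0.56 ± 0.16 that did not pass the test (limma, adjusted p = 0.14). *PYE*, a bHLH repressor, *ILR3* and *BHLH104*, partners of *BHLH115*, and *BTSL1* and *BTSL2*, ubiquitin ligases that mark such factors for breakdown, had log2 values from 0.18 to 0.51 in -S over FN, none past the test. The bHLH factors *BHLH34* and *BHLH121* had 0.17 ± 0.15 and -0.27 ± 0.21. *PYE* and *BHLH121* ran in opposite directions in the 2 experiments, with raw ratios of 1.5 and 0.97 for *PYE* and of 0.56 and 1.13 for *BHLH121* in experiments 1 and 2.

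Of 24 genes for uptake and transport only *NRAMP3*, which exports iron from the vacuole, could be named, through the same study table as *FER1*. Its signals were 215.1 and 116.4 in -S, 196.1 and 115.0 in 30' S and 262.1 and 127.5 in 3 h S, against 76.8 and 92.8 in FN. It was higher than FN in all 3 other conditions in both experiments and was not called (log2 -S over FN 0.80 ± 0.28, limma, adjusted p = 0.18). Like *FER1*, *NRAMP3* came to be named through a high raw ratio of -S over FN in experiment 1 (2.80). Its larger rise in that experiment and this p are therefore descriptions. In experiment 2, which the naming did not use, the raw ratio was 1.25. Of the 8 listed storage genes, other ferritins and vacuolar iron importers, 0 could be named, so *FER1* stands alone for iron storage.

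Coumarins are phenolic compounds that roots release to mobilise iron. *F6'H1*, the hydroxylase that opens the scopoletin branch, had signals of 130.7 and 134.6 in -S, 188.1 and 220.6 in 30' S and 294.9 and 355.9 in 3 h S, against 141.4 and 342.1 in FN. Its signal was higher at each later time of resupply in both experiments, with a log2 value of 1.19 ± 0.27 in 3 h S over -S that did not pass the test (limma, adjusted p = 0.12). Both FN signals lay above both -S signals but far from each other (log2 -S over FN -0.68 ± 0.27, adjusted p = 0.22). *COSY*, a coumarin synthase, and *BGLU42*, a glucosidase linked to coumarin release, had 0.27 ± 0.13 (adjusted p = 0.29) and -0.01 ± 0.15 (adjusted p = 0.97) in -S over FN. *S8H*, which makes fraxetin, stayed between 7.6 and 16.8 over the 8 arrays and reached the floor on 2 of them.

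Iron-sulfur cluster assembly, where iron and cysteine sulfur are joined, was represented by 2 of 13 genes. *NFS2*, the plastid cysteine desulfurase, had 0.38 ± 0.20 in -S over FN (limma, adjusted p = 0.31), and *ISU1*, a mitochondrial scaffold, 0.03 ± 0.16 (adjusted p = 0.93; 95% interval -0.35 to 0.41). For *ISU1* signals of 491.0 and 364.0 in -S overlapped with 443.9 and 386.0 in FN. Among genes for other metals, *CCS*, the copper chaperone of superoxide dismutase, had -0.36 ± 0.15 (adjusted p = 0.24). *ZIP9*, a transporter of the same family as *IRT1* that responds to zinc, swung between 18.9 and 286.5 over the 4 arrays of experiment 1 and between 38.4 and 104.0 over those of experiment 2 (log2 -S over FN -0.24 ± 0.65, adjusted p = 0.85; 95% interval -1.79 to 1.3), the widest interval among the named genes.

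**Figure D4:**
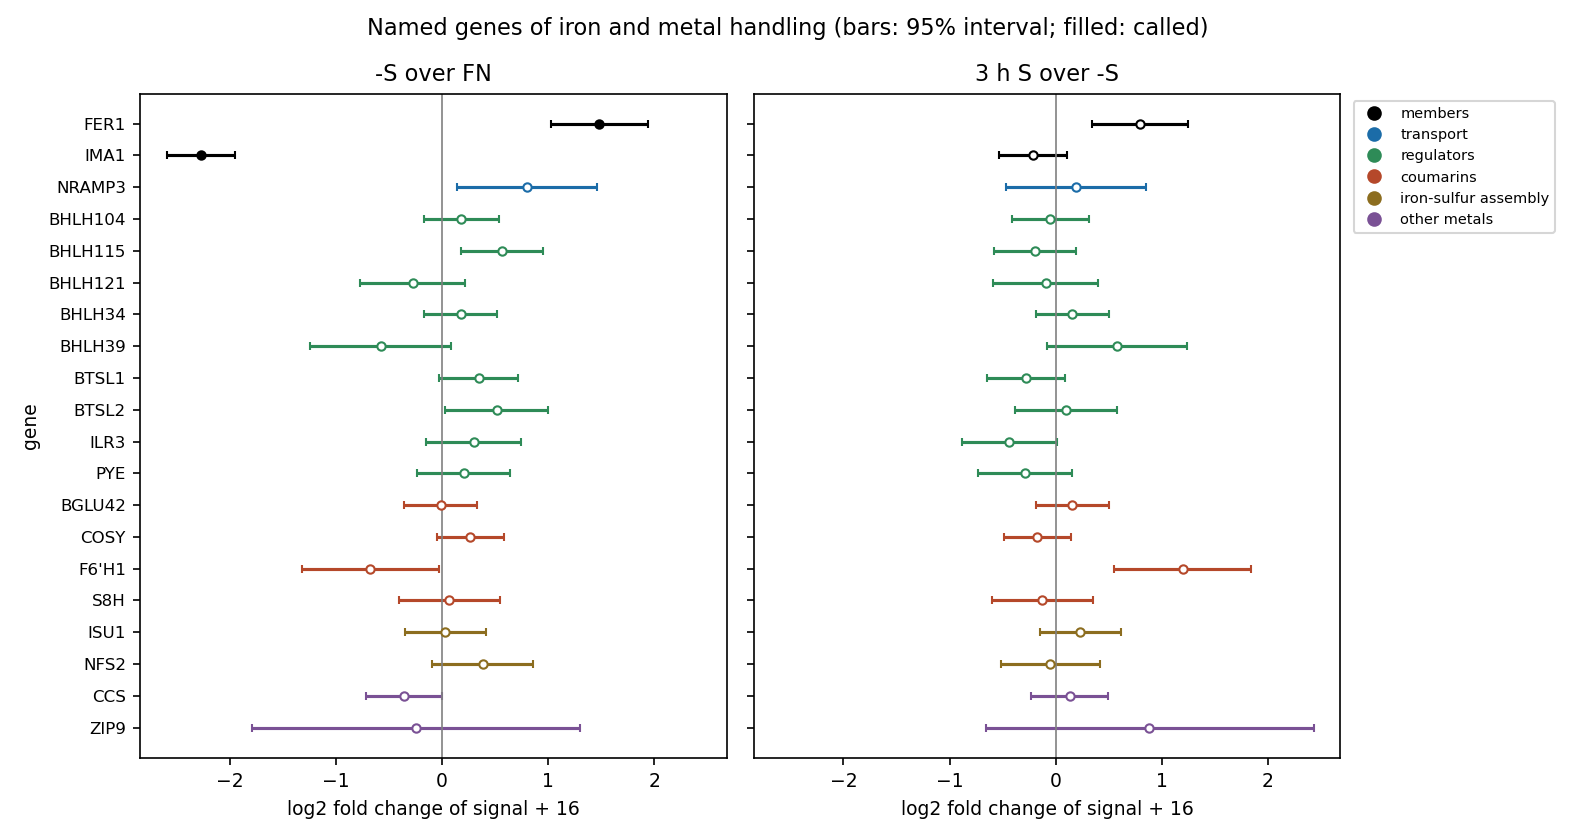
Fitted log2 fold changes with 95% intervals for *FER1*, *IMA1* and the 18 other named genes of iron and metal handling that entered the fit, in -S over FN (left) and 3 h S over -S (right); colours mark the lists and filled points were called. In -S over FN only *FER1* and *IMA1* are filled, and in 3 h S over -S no point is.

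The genes that followed *IMA1* and *FER1* most closely were looked for among probe sets with 1 gene name only, by the Pearson correlation of log2(signal + 16) over the 8 arrays, as a description with no test. *IMA1* was most like *APS4*, an ATP sulfurylase (r = 0.985), AT3G05230 (r = 0.976) and the cytokinin response regulator *RR16* (r = 0.963), and 40 of all probe sets tested had r above 0.9. The correlation does not measure the size of a change. AT3G05230 changed far less than *IMA1*, with signals of 124.7 and 120.9 in -S against 162.9 and 162.1 in FN. *APS4* had signals of 124.7 and 122.2 in -S, 121.8 and 122.1 in 30' S and 111.9 and 97.9 in 3 h S, against 927.9 and 853.7 in FN. Like *IMA1* it was low outside FN, a likeness that follows from the choice by correlation. Its signals there were far above the floor, whereas those of *IMA1* lay near it, so a shared plateau was not measured. *FER1* was most like AT4G01870 (r = 0.983), AT5G66010 (r = 0.972) and *CP1*, a calcium-binding protein (r = 0.968), and 61 probe sets had r above 0.9. AT5G66010 changed far less than *FER1*, with signals of 86.9 and 85.4 in -S against 71.0 and 71.6 in FN. *CP1*, like *FER1*, was named through the study's tables. It had signals of 524.8 and 369.5 in -S, 644.5 and 526.8 in 30' S and 796.7 and 900.0 in 3 h S, against 147.5 and 255.6 in FN. As with *FER1*, both 3 h S arrays were the highest and both FN arrays the lowest, a likeness that follows from the choice by correlation.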

How the data were processed

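Affymetrix ATH1 signals of 8 arrays were used. The authors deposited linear intensity values, MAS version 5.0 signals scaled per array; the scaling target is not given in the sources used here. Detection calls were not used per probe set; the absent share the study states for each array set its floor. Gene names came from the platform annotation (13513 probe sets with 1 gene) and otherwise by the gene identifier beside the probe ID in the study's tables (806); symbols came from RefSeq (TAIR10.1). No sequence was used here. Conditions came from the sample descriptions.

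limma 3.58.1 (R 4.3.3; lmFit, eBayes without trend) was fitted to log2(signal + 16) of 17138 probe sets, leaving out 5608, with condition terms and a block for experiment (3 residual and 4 prior degrees of freedom), after tests on simulated data. These used independent noise and changed 200 probe sets in -S. Of the 200, 145 were recovered at a 2-fold change, beside 11 false calls, and 199 at a 5-fold change, beside 22 false calls. The block follows the labels, which number the experiments, and the study, which forms ratios within an experiment. The difference between experiments correlated between conditions with r of 0.08 to 0.31 in the pairs that include FN and 0.6 to 0.71 in the others. Pairing by experiment was thus weaker in the comparisons with FN, where the *IMA1* and *FER1* calls lie. The number of arrays limits the precision. Tables and figures were made with Python 3.11.15, pandas 2.3.3 and matplotlib 3.10.9.

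The genes, the lists and the tests were chosen with earlier results of these data known. Named are the 5 genes, from each list of iron and metal genes those called or else the 2 with the largest log2 change in -S over FN, and the 3 named genes most correlated with each of *IMA1* and *FER1*; *PYE*, *ILR3*, *BHLH104*, *BTSL1*, *BTSL2*, *BHLH34*, *BHLH121*, *BGLU42* and *S8H*, and the marker and label-check genes *EXPA7*, *EXPA18*, *PYK10*, *SBPASE* and *BGLU28*, were added after their values were seen. Alternatives were quantile normalization, no offset (zeros set to 0.1), no filter, no replicate block, the 2 compared conditions alone, the methods' test and each array left out.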

Additional observations from a re-analysis of the deposited data

How the results depend on the processing

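*IMA1* in -S over FN kept its direction and call in 13 of 14 alternatives (log2 -3.02 to -2.18) and in 3 h S over FN in 11 of 14 (-3.44 to -2.39). *FER1* kept its direction in both (1.22 to 1.75 and 2.04 to 2.52) and its call in 5 and 7 of 14. Among these alternatives the methods' t-test has 2 arrays per condition and shares no spread between probe sets. It could hardly call any probe set after adjustment, so its lack of calls is no evidence against either gene. The methods' t-test, two-sided and with unequal variances, left all of these values as fitted (-2.27, -2.48, 1.48 and 2.28) with adjusted p of 0.88 to 0.92, and called 0 probe sets in each of the 5 comparisons after Benjamini-Hochberg adjustment (531, 252, 706, 379 and 719 at an unadjusted p under 0.05, against 3623, 509, 2368, 3192 and 2451 in limma; here and below, -S over FN comes first, followed by 30' S and 3 h S each over -S, then by 3 h S over FN and over 30' S). *FER1* in -S over FN was not called without the offset (1.52), without the filter (1.48) or on -S and FN alone (1.48), and in 3 h S over FN without the offset (2.32) or the filter (2.28); on the compared conditions alone it was called in 3 h S over -S (0.80) and 3 h S over 30' S (0.79). Leaving out an array gave *FER1* 1.22 to 1.75, -0.26 to 0.27, 0.53 to 1.06, 2.04 to 2.52 and 0.78 to 0.80, and *IMA1* -2.37 to -2.18, -0.31 to -0.20, -0.24 to -0.18, -2.58 to -2.39 and -0.01 to 0.10; the sign turned for *FER1* in 30' S over -S without the -S (-0.26) or 30' S (-0.003) array of experiment 2 and for *IMA1* in 3 h S over 30' S without the 30' S array of experiment 2 (-0.012), all far from the limit. The number of probe sets called, 243, 1, 182, 96 and 94, became 129, 0, 46, 6 and 20 without the offset, 111, 0, 80, 2 and 38 without the filter, 119, 0, 77, 22 and 31 with no replicate block and 36, 10, 1067, 50 and 1234 on the compared conditions alone; quantile normalization gave 3 for 30' S over -S. Leaving out single arrays gave 47 to 4860, 0 to 8, 6 to 1195, 0 to 4639 and 0 to 1299, where 4860 and 4639 are without the FN array of experiment 2. The cause was not tested. Without the block neither the *IMA1* nor the *FER1* calls changed. Signals near the floor limit *IMA1* outside FN, *BHLH101*, *BHLH39* and *S8H*.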
